A study of Mus musculus with 10 samples.

Results

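Heart was set directly against muscle on a splicing microarray, with 1 array of each, out of 10 arrays in the series. Both RNAs were pooled total RNA from mice of the CD1 strain, an outbred stock. The label of the second tissue says only muscle, not which muscle, and it is read here as skeletal muscle. The labels state neither age nor sex nor how many animals each pool held. The other 8 tissues of the same strain (brain, intestine, kidney, liver, lung, salivary, spleen and testis, 1 pooled sample each) served only to tell which of the 2 tissues departed from the rest. All 3126 alternative splicing events of the array entered the comparison, each with 7 probes, 21882 probes in all. Each tissue is 1 pool, so no test between tissues was possible, and every count or difference below describes these 2 arrays and has no replicate check.

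Heart and skeletal muscle are both striated muscles whose cells contract through sarcomeres. They use separate genes for some sarcomere proteins, and for others, such as titin and the troponin T family, each tissue makes its own forms of a protein by joining different exons. Proteins of the RBFOX, MBNL and CELF families and the titin splicing factor RBM20 are known regulators of exon choice in striated muscle. A cassette exon is an exon that a transcript either keeps, joined to both neighbouring exons, or skips, so that the neighbours are joined to each other.

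The probes follow this layout. C1 and C2 lie in the flanking exons, A lies in the alternative exon, C1:A and A:C2 cross the junctions made by inclusion, and C1:C2 crosses the junction made by skipping. These roles were read from the probe suffixes. The role of the remaining probe, INT, is not given in the sources used here. Averaging C1 and C2 gave the level of an event. Its junction index is the average of both inclusion junctions less the skipping junction, and its body index is A less the level. Values are the authors' processed values on a compressed, log-like scale of unstated base that stops at 0, so differences are in units of that scale and not folds. Single probe values are given as deposited. Differences are heart minus muscle after the median of its own array was taken from every value, which changes little, since the medians were 2.10 in heart and 2.10 in muscle, -0.00545 apart. The events carry numbers and no gene names, so neither tissue could be checked against its marker genes, and at most a pair of events in each direction is named.

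The arrays had 2 peculiarities that bear on the values, and both were looked for after the values had been seen. First, 2.57% of probes were at exactly 0 in heart, against 1.39% in muscle. In 4 events all 7 probes were at 0 in heart, and in 2 events all 7 were at 0 in muscle. The same happened in up to 6 events on the other arrays. An exact 0 on every probe may be a failed estimate, so such an event is only listed at 0. Second, muscle shared bright single probes with spleen. Muscle and spleen both lay more than 1 unit above all other 8 tissues in 154 probes, and in 136 of them (88.3%) the muscle and spleen values were within 0.2 units of each other. Among 67 probes that heart and muscle had above the other 8 tissues in the same way, 22 (32.8%) were that close. Of the 136 close probes of muscle and spleen, 41 were C1:A, 20 A:C2, 25 C1:C2 and 32 INT, against 12 A, 5 C2 and 1 C1. The counts of calls and the sides of level calls are given below with and without the events concerned. For the sides of exon calls, the calls that held a shared probe are counted.

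Most events differed little in level between heart and muscle, but many flanking probes were dim. The median C1 probe read 2.52 in heart and 2.45 in muscle. These medians and those of C2 lay below the 95th percentile of INT probes, 2.86 in heart and 3.25 in muscle. A small difference is thus not by itself a reading of equal transcript level. Whether events with bright flanks differed as little was not tested. Of 3126 events, 2764 (88.4%) differed by less than 1 unit, and the 5th and 95th percentiles of the difference were -0.85 and 1.22 around a median of 0.12. The robust SD of the level difference, from the median absolute deviation, was 0.553. Ranked from the smallest among the 45 pairs of tissues, heart and muscle held rank 7 for the spread of level and rank 13 for the spread of the junction index. Across events, the C1 difference correlated with the C2 difference at r = 0.57 over 3126 events, which share the same 2 arrays.

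At a threshold of 4 robust SDs, or 2.21 units, 26 events (0.832% of those tested) were higher in heart and 11 (0.352%) were lower. The higher ones differed by 2.22 to 6.79 units, with a median of 2.61, and the nearest event inside the threshold differed by 2.17. The lower ones differed by -3.90 to -2.24, with a median of -2.70, and the nearest event inside the threshold by -2.17. Thus 70.3% of the level calls were higher in heart. After quantile normalization, which gives all arrays 1 distribution, 20 were higher and 17 lower, so that 54.1% were higher. In these bulk RNAs, fewer cells of a type and less RNA per cell cannot be told apart.

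C1 and C2 differed in the same direction in all 37 events, which is largely set by calling events on their mean. Both flanks passed the threshold on their own in 16 events (0.512%) higher in heart and in 5 (0.16%) lower in heart. The 4 probes outside the level measure moved along in most of them. All 6 exon and junction probes were higher in heart in 16 of the 26 events, and all 6 were lower in heart in 9 of the 11. Over the 26 higher events the median difference was 1.08 for A, 1.52 for C1:A, 1.45 for A:C2 and 2.22 for C1:C2, against 0.05 for INT. Over the 11 lower events it was -1.44 for A, -2.28 for C1:A, -1.97 for A:C2 and -1.07 for C1:C2, against -0.49 for INT. Thus the skipping junction was the junction with the largest median gap among events higher in heart, and the one with the smallest among events lower in heart.

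Set against the other tissues, most of these differences fell on the side of the tissue that had more of the transcript. Values stop at 0, so where the other tissues were low, the lower tissue had little room to depart downward. This favours the side of the higher tissue, and how many assignments it set was not tested. An event was assigned to a side when that tissue lay at least 2 times as far from the median of the other 8 tissues as its partner did. Of the 26 events higher in heart, 23 were assigned to heart, 2 to muscle and 1 to both. Heart was the highest of all 10 tissues in 18 of them. In the remaining 8, liver was highest in 5, testis in 2 and kidney in 1. Muscle was the lowest of the 10 in 6. Without the 2 events in which all 7 muscle probes were at 0, 22 were assigned to heart, 1 to muscle and 1 to both, heart was highest in 17, and muscle was lowest in 4.

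Of the 11 events lower in heart, 7 were assigned to muscle, 3 to heart and 1 to both. Muscle was the highest tissue in 5 of them, testis in 3, brain in 2 and liver in 1, and heart was the lowest in 4. All 7 heart probes were at 0 in 2 of the 3 events assigned to heart. Without these 2, 1 event was assigned to heart, 7 to muscle and 1 to both, and heart was lowest in 3. Brain came next in 7 of the 18 events with heart highest, and in 3 of the 5 with muscle highest. The 18 include a set of 6 with almost the same level profile and brain next, described below. These 6 may not be separate readings. In total 4 of the 37 events had 1 tissue at 0 on all 7 probes, and 24 higher and 9 lower events were left without them.

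**Figure D1:**
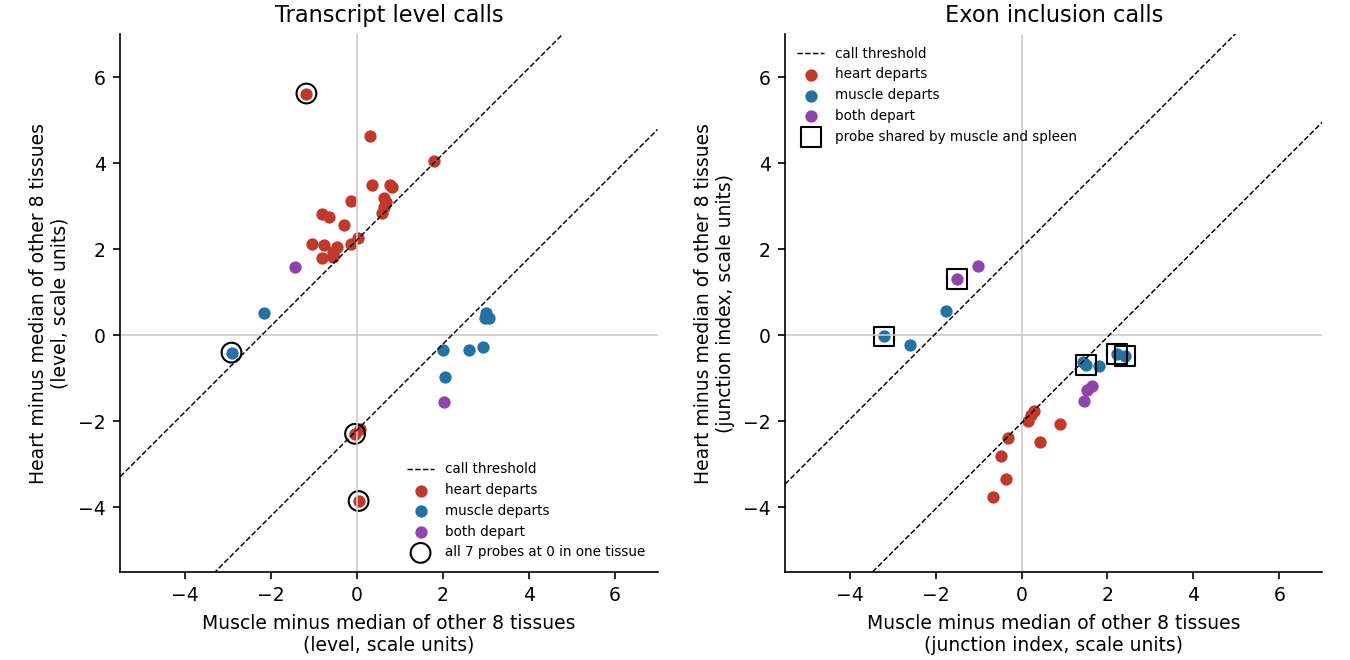
Each point is a called event, by the distance of heart (vertical axis) and of muscle (horizontal axis) from the median of the other 8 tissues in scale units, for transcript level on the left and for the junction index on the right. Points outside the dashed lines pass the threshold. Rings mark the 4 level calls with all 7 probes at 0 in one tissue, and squares the 5 exon calls with a probe shared by muscle and spleen. The level calls lie mostly high on the heart axis near 0 on the muscle axis, and the skipped exons are split between heart and muscle.

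Event Ben117 had the largest level difference. Its C1, A and C2 probes read 6.95, 5.80 and 6.63 in heart, and its C1:A, A:C2 and C1:C2 junctions read 6.64, 6.31 and 6.45 in heart, whereas all 7 probes were listed at 0 in muscle. The level was 6.79 in heart against a listed 0 in muscle, and 0.59 to 4.13 in the other tissues, with lung highest. Heart was thus highest of the 10 in both flanks. The INT probe of this event read 3.21 in heart and 1.64 to 2.04 in the other 8 tissues but was also at 0 in muscle, so the muscle value may be a failed estimate and the difference of 6.79 is not a size. Testis had C1:A at 6.31 and C1:C2 at 7.14 while its flanks stayed at 0.78 and 0.64.

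Event Ben3059 was the next. C1 read 5.85 in heart and 1.90 in muscle, and C2 read 6.92 in heart and 2.26 in muscle. The level was 6.39 in heart and 2.08 in muscle, a difference of 4.31, and lung had the highest level of the other tissues, 4.58. Muscle exceeded the median of the others by 0.31 units, so the difference was on the heart side. This event was also among the exon calls described below.

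Event Ben181 was lower in heart. C1 read 0.43 in heart and 3.71 in muscle, and C2 was listed at 0 in heart and read 3.86 in muscle. The level was 0.21 in heart and 3.79 in muscle, a difference of -3.57. The deviation from the median of the other tissues was -1.54 in heart and 2.03 in muscle, so both departed. Brain was higher than muscle, at 4.91. The junctions C1:A and A:C2 read 0.61 and 0.28 in heart, against 3.67 and 3.56 in muscle.

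Event Ben1736 differed on every exon and junction probe. Its 6 probes read 1.22 to 1.80 in heart and 3.86 to 4.67 in muscle, whereas INT read 0.88 in heart and 0.90 in muscle. The level was 1.28 in heart and 4.49 in muscle, a difference of -3.21. Testis stood above muscle at 4.93 and brain came next at 2.87, while the other 6 tissues read 1.37 to 1.81, close to heart. Muscle and testis thus stood well above the other tissues, brain included.

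**Figure D2:**
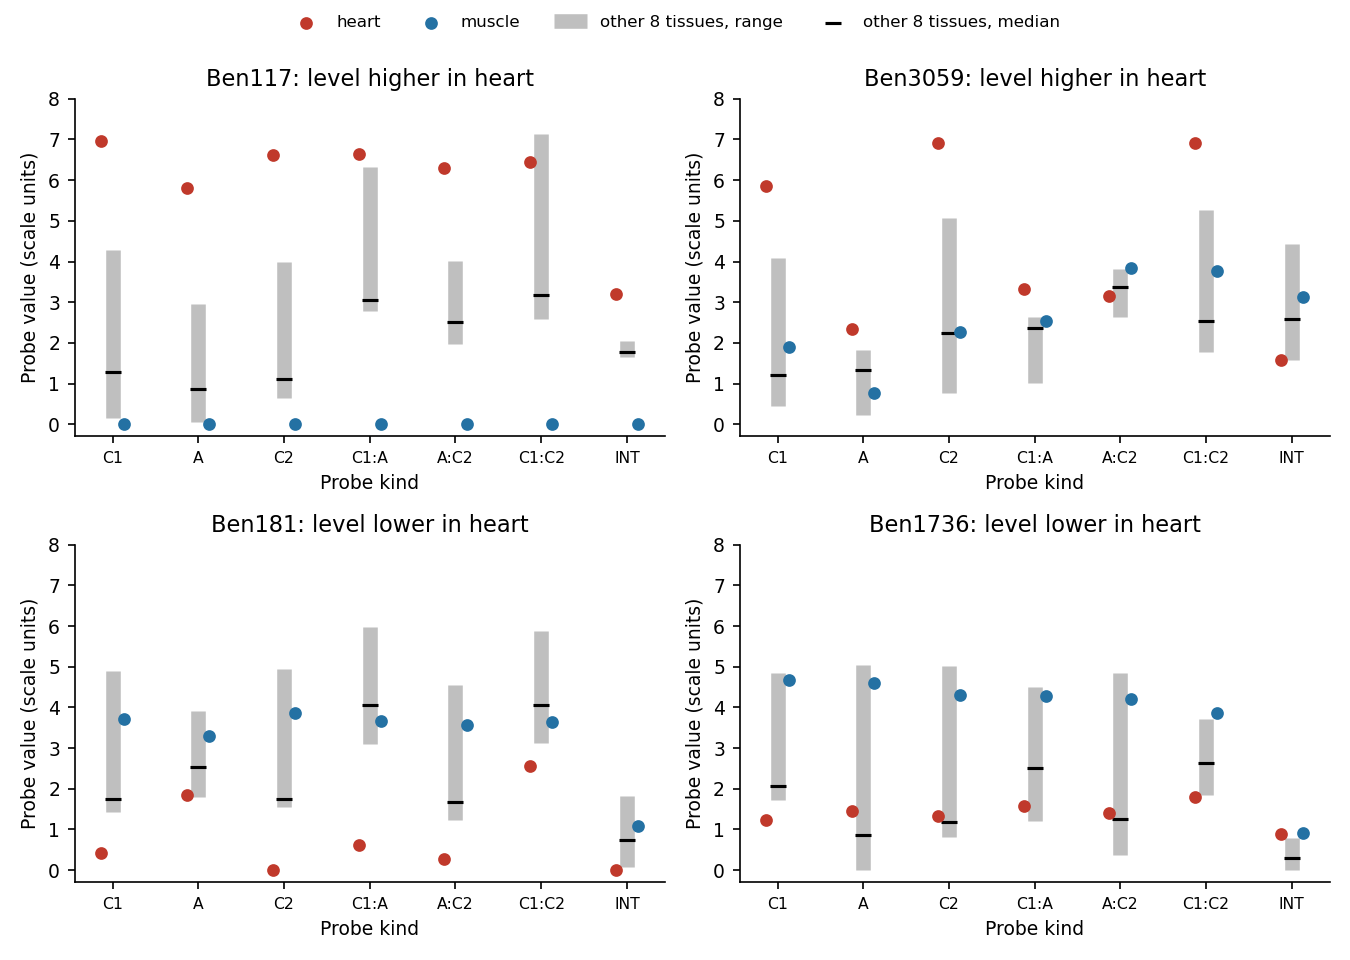
Probe values as deposited (scale units) of the 4 events named for their level, by probe kind, with heart to the left of muscle, the range of the other 8 tissues as a grey bar and their median as a black tick. In Ben117 all 7 muscle probes lie at 0, and in Ben1736 the 6 exon and junction probes lie at 1.22 to 1.80 in heart and at 3.86 to 4.67 in muscle.

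Several events higher in heart had almost the same level profile over the 10 tissues, at r of at least 0.95. Counted once per profile, the 26 events gave 18 profiles and the 11 lower events gave 11. The counts by side and by highest tissue given above were not recounted per profile. The largest set held 6 events. Their level was 5.31 to 5.74 in heart and 2.94 to 3.20 in muscle, with brain next at 3.48 to 3.93, and their profiles correlated at 0.96 to 0.99. A set of 3 events read 3.44 to 4.17 in heart and 0.54 to 1.54 in muscle, with liver highest at 4.44 to 4.96. A further pair read 4.15 and 4.55 in heart and 0.98 and 2.18 in muscle. The files do not say whether such events lie in 1 gene or share probe sequence.

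The 6 events fell into 3 pairs by their other probes, and the pairs differed in which junctions were high in heart. In the first pair, both inclusion junctions were high in heart and almost unread elsewhere. C1:A read 4.13 and 3.98 in heart and 0.99 and 0.92 in muscle, with at most 0.96 in any other tissue. A:C2 read 4.89 and 4.65 in heart and 1.13 and 1.01 in muscle, with at most 1.22 in any other tissue. The skipping junction was high too, at 5.01 and 4.78 in heart and 2.90 and 2.89 in muscle. The junction index differed by 1.34 and 1.47 and the body index by -1.47 and -1.32, so neither event was called for its exon.

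In the second pair only A:C2 stood far apart among the junctions. It read 5.49 and 5.53 in heart and 2.58 and 2.89 in muscle. C1:A read 3.09 and 3.09 in heart and 2.64 and 2.98 in muscle, and C1:C2 read 3.46 and 3.09 in heart and 2.62 and 2.89 in muscle. The 2 inclusion junctions of 1 exon thus gave different pictures.

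In the third pair the skipping junction was high in heart and the inclusion probes were dim in both tissues. C1:C2 read 4.72 and 4.46 in heart and 2.17 and 2.05 in muscle. A read 0.84 and 0.71 in heart and 0.80 and 0.44 in muscle. The junction index was -3.68 and -3.42 in heart and -1.35 and -1.33 in muscle, and both events met the rule for more skipping in heart. C1:A, A:C2 and A lay close to the INT medians in both tissues (1.18 in heart and 1.12 in muscle), so the index differences of -2.33 and -2.09 follow C1:C2, and the level differences were 2.63 and 2.72. In these events more skipping and a higher level of a transcript without the exon cannot be told apart.

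**Figure D3:**
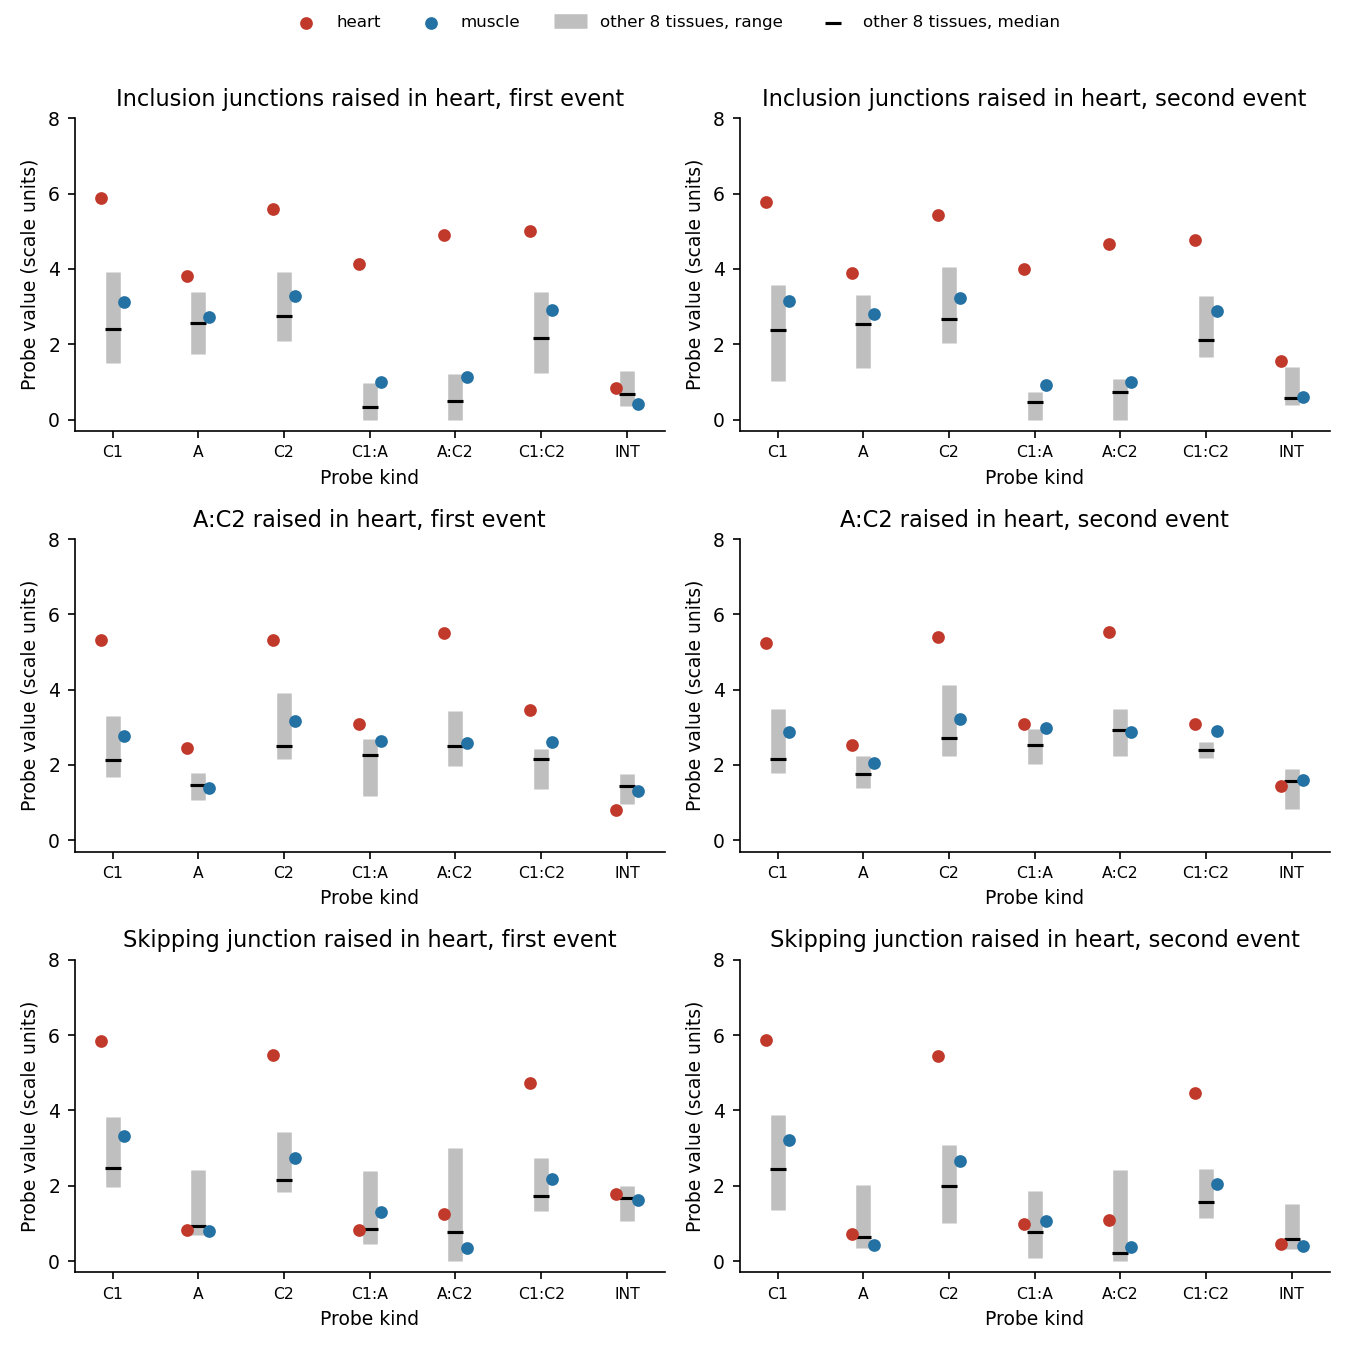
Probe values as deposited (scale units) of the 6 events with look-alike levels, 1 row of panels per pair, with heart to the left of muscle, the range of the other 8 tissues in grey and their median as a black tick. The flanking probes C1 and C2 lie above 5 units in heart in all 6 events, whereas all 3 junctions are high in heart in the first row, A:C2 far more than the others in the second, and C1:C2 alone in the third.

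Events that resemble each other offer the nearest thing to a repeat measurement on these arrays. Pairs were picked on the other 8 tissues alone, where their 48 exon and junction values correlated at r of at least 0.95. This gave 37 pairs of 70 events. Between members of a pair, the heart minus muscle level differed by a median of 0.20 units, with a 90th percentile of 0.73 and the largest gap at 1.72. The junction index differed by a median of 0.23, with a 90th percentile of 0.97 and the largest gap at 1.37. None of the 37 pairs had a gap above the call threshold of either measure. Most events differed between heart and muscle by far less than the threshold, so such a gap was unlikely for any pair of events. Gaps of pairs picked at random were not computed, so the absence of large gaps does not show how reliable the calls are. The gaps within look-alike pairs cover at most probe error within an array and say nothing of the spread between pools or hybridizations.

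Exon inclusion was compared in the 2193 events whose flanking probes C1 and C2 both stood above the lowest 25% of values in heart and in muscle, and 933 events did not qualify. For most of these events the junction index differed little, by less than 1 unit in 1948 (88.8%). Its median difference was -0.04, with 5th and 95th percentiles of -1.11 and 0.97. At 4 robust SDs, or 2.04 units, and with the body index of the same sign, 5 exons (0.228%) were more included in heart and 17 (0.775%) were more skipped in heart. Skipping thus made up 77.3% of the 22 exon calls, but few calls had bright junctions. With the inclusion mean and C1:C2 each required to be brighter than 95% of INT probes (above 2.86 in heart and 3.25 in muscle) in at least one of the 2 tissues, 3 exons were more included and 2 more skipped. Of all 2193 events 487 were that bright, about the same share as among the 22 calls. The excess of skipping was thus not seen among bright junctions, where calls were few. With the flanks required to be as bright, 1 was more included and 1 more skipped.

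The junction index alone passed in 9 exons (0.41%) toward inclusion and 18 (0.821%) toward skipping. The body index alone passed its threshold of 2.20 units in 3 exons (0.137%) toward inclusion and 13 (0.593%) toward skipping, and in 2 and 10 without events that hold a probe shared by muscle and spleen. In the 5 exons that passed by the junction index and were not called, the body index had the other sign. In 4 of these the junction index was higher in heart by 2.24 to 2.64 and the body index differed by -0.96 to -0.12. In the fifth the junction index differed by -2.31 and the body index by 0.26. Over the 2193 events the 2 indices correlated at r = 0.28. Both draw on the same arrays, but on different probes.

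**Figure D4:**
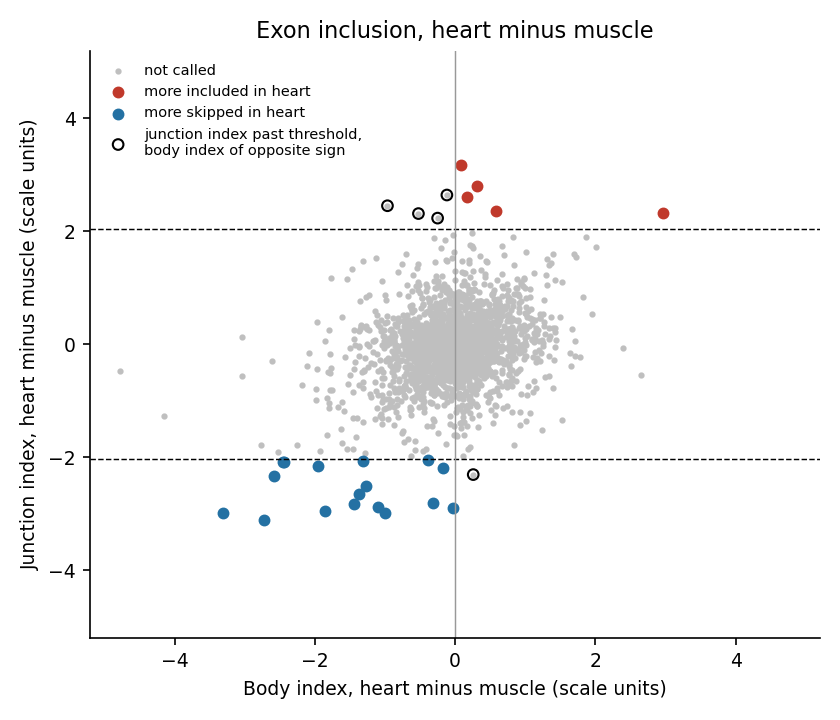
Each point is 1 of the 2193 events with readable flanks, by its heart minus muscle difference in the body index (horizontal) and the junction index (vertical), in scale units. Dashed lines mark the threshold of 2.04 units. The 5 exons more included in heart and the 17 more skipped in heart are coloured, and circles mark the 5 events whose body index has the opposite sign.

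In the 5 exons more included in heart the skipping junction differed more than the inclusion mean. C1:C2 alone enters at full weight the index that picked these exons, so its large gap was partly set by the selection. Their index differences were 2.33 to 3.18, with a median of 2.62. Among the 2193 events the nearest value inside the threshold was 1.97. C1:C2 was lower in heart in all 5, at a median of 1.01 in heart and 4.77 in muscle. In none were both inclusion junctions higher in heart. The median difference was 0.37 for C1:A and -0.56 for A:C2, against -2.81 for C1:C2. The A probe was higher in heart in 4 of the 5, by a median over the 5 of 0.73, and the body index passed its own threshold in 1. None of the 5 was a level call. By the other tissues 3 were assigned to muscle, 2 to both and 0 to heart. Spleen lay nearer to muscle than to heart in 4 of the 5. A probe shared by muscle and spleen was held by 2 of the 5, 1 assigned to muscle and 1 to both. The largest difference, 3.18, came from an exon whose inclusion junctions were on average too dim for the naming rule. Its index was 1.66 in heart and -1.52 in muscle, and -1.33 to 2.86 in the other tissues, and it held such a shared probe.

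Event Ben819 was one of these. Its junction index was 1.34 in heart and -1.46 in muscle, a difference of 2.80, and -0.76 to 0.19 in the other tissues. C1:C2 read 0.33 in heart and 5.01 in muscle, and 5.05 in spleen. A:C2 read 0.98 in heart and 5.34 in muscle, and 5.37 in spleen. The remaining 7 tissues lay well below spleen on both junctions, as the medians of the other 8, 1.43 for C1:C2 and 0.96 for A:C2, show. The other probes differed little: C1:A read 2.37 in heart and 1.75 in muscle, and A read 2.24 in heart and 2.03 in muscle. With C1:A as the only inclusion junction the index difference was 5.29, and with A:C2 as the only one it was 0.31, so the call rests on probes that muscle shares with spleen.

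Event Ben3179 gave the same call with bright flanks, A and inclusion junctions in both tissues. Its C1, A and C2 probes read 4.10, 4.46 and 4.63 in heart, against 3.80, 3.73 and 3.81 in muscle. C1:A read 3.86 in heart and 3.49 in muscle, and A:C2 read 4.49 in heart and 4.85 in muscle. The skipping junction read 1.99 in heart, below every other tissue, and 4.60 in muscle. It was 2.48 to 4.67 in the other 8. The junction index was 2.19 in heart and -0.43 in muscle, a difference of 2.62, and -0.32 to 0.69 in the others, with the lowest of these in spleen. Heart thus lay above all other tissues, and muscle lay below them next to spleen, whose C1:C2 read 4.67. The body index differed by 0.17 only. The INT probe, which enters no index, read 1.90 in heart, 3.60 in muscle and 2.08 to 3.57 in the other 8. It was thus also lowest in heart and highest in muscle, and in heart it lay close to C1:C2. Whether the 2 gaps share a source was not tested.

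The 17 exons more skipped in heart had index differences of -3.11 to -2.05, with a median of -2.65. Among the 2193 events the nearest value inside the threshold was -1.98. C1:C2 was higher in heart in 16 of them, by a median over the 17 of 1.98, a direction that picking on the index favours. Inclusion junctions and C1:C2 moved in opposite directions in 10, both inclusion junctions were lower in heart in 8, and A was lower in heart in 9. The body index passed its threshold in 5. By the other tissues 9 were assigned to heart, 5 to muscle and 3 to both. The 17 hold the third look-alike pair above, assigned to heart, and a further look-alike pair assigned to muscle. Exon calls, their sides and the share of skipping were not recounted per profile.

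Of the 17, 7 were also level calls higher in heart, and these 7 were all assigned to heart. In these 7 events the flanks and the skipping junction were higher in heart while the inclusion probes differed little. The median difference was 2.53 for C1, 2.78 for C2 and 2.55 for C1:C2, against 0.27 for A, 0.06 for C1:A and -0.06 for A:C2. C1:C2 had a median of 5.11 in heart and 2.17 in muscle. C1:A had a median of 0.99 in heart and 1.41 in muscle, and A:C2 1.26 in heart and 0.60 in muscle, values near the INT medians. The inclusion mean was at or under the 95th percentile of INT in both tissues in 6 of the 7. With inclusion that dim the index falls as the level rises, so for these 6 the exon call is no measurement apart from the level. The seventh, Ben3059, had brighter inclusion junctions, but its exon call is not shown to stand apart from the level either. The other 10 exons more skipped in heart were no level call higher in heart. For the 19 events higher in heart without an exon call, the inclusion junctions differed by medians of 1.97 and 2.23 and C1:C2 by 2.15. These 2 sets were formed on the same probes, so the contrast between them is a description.

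A further 9 of the 17 were no level call. There both kinds of junction differed. C1:A had a median of 0.47 in heart and 2.76 in muscle, and C1:C2, which alone enters the index at full weight, 3.40 in heart and 2.03 in muscle. The median difference was -1.89 for C1:A, -0.58 for A:C2 and 1.28 for C1:C2. The inclusion mean was at or under the 95th percentile of INT in both tissues in all 9. The A probe differed by a median of -0.12. Among the 5 exons assigned to muscle, C1:A had a median of 0.36 in heart and 3.26 in muscle, and 3 of the 5 held a probe shared by muscle and spleen. None of the 9 assigned to heart and none of the 3 assigned to both held one. Without all events that hold such a probe, 14 exons were more skipped and 3 more included in heart.

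In event Ben3059, the flanks and the skipping junction were high in heart together. C1:C2 read 6.91 in heart and 3.75 in muscle, next to the flanks at 5.85 and 6.92 in heart and at 1.90 and 2.26 in muscle. C1:A read 3.32 in heart and 2.54 in muscle, A:C2 read 3.15 in heart and 3.83 in muscle, and A read 2.34 in heart and 0.77 in muscle. The junction index was -3.67 in heart and -0.57 in muscle, a difference of -3.11. It was -2.19 to 1.16 in the other tissues, and lung, which had the next highest level, also had the lowest index among them. The body index differed by -2.73. With only C1:A or only A:C2 as the inclusion junction, the difference was -2.38 or -3.83.

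Event Ben884 was the single exon call whose level was called lower in heart. Its C1, A and C2 probes read 3.74, 1.14 and 1.61 in heart and 5.95, 5.41 and 5.32 in muscle. C1:A read 4.72 in heart and 5.58 in muscle, A:C2 was listed at 0 in heart and read 3.93 in muscle, and C1:C2 read 4.89 in heart and 5.22 in muscle. The junction index was -2.53 in heart and -0.47 in muscle, a difference of -2.07, and -2.23 to -1.45 in the other tissues. The deviation from their median was -0.63 in heart and 1.44 in muscle, so the call was on the muscle side. The difference rests on A:C2: with that probe alone for inclusion it was -3.60, and with C1:A alone -0.53. C2 and A:C2 were low in the other tissues as well, with medians of 1.55 and 0.54.

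**Figure D5:**
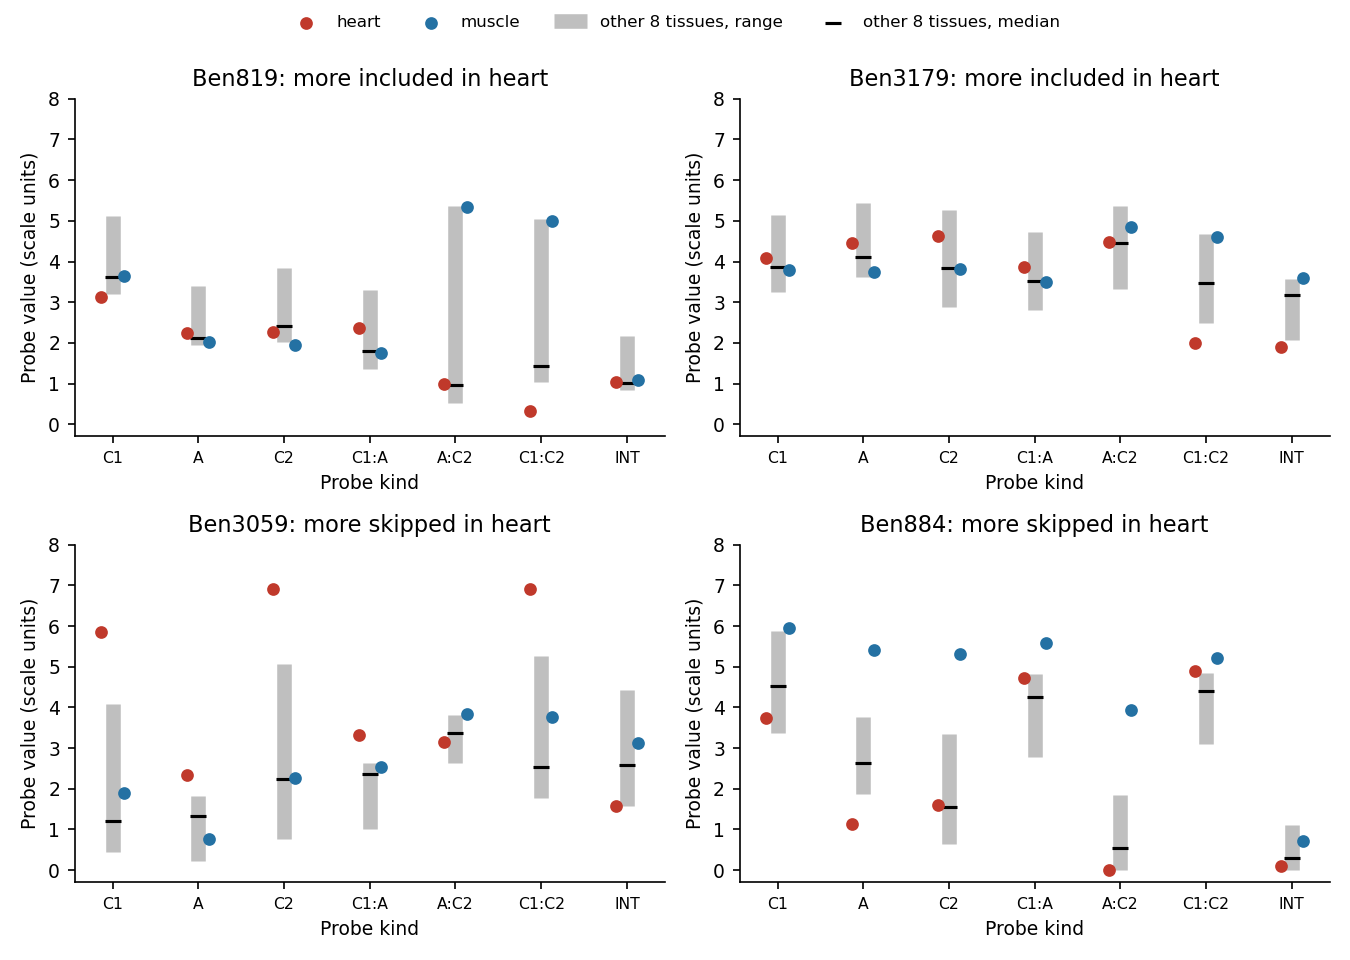
Probe values as deposited (scale units) of the 4 events named for their exon, by probe kind, with heart to the left of muscle, the range of the other 8 tissues in grey and their median as a black tick. The skipping junction C1:C2 lies below all other tissues in heart in Ben819 and Ben3179 and above them in Ben3059, and in Ben884 muscle exceeds heart on A, C2 and A:C2 by more than 3 units.

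Dim junctions limit these exon calls. The inclusion mean and C1:C2 each exceeded the 95th percentile of INT in at least one of the 2 tissues in 487 of the 2193 events. The inclusion mean was at or under it in both tissues in 2 of the 5 more included and 15 of the 17 more skipped exons. The same was not counted over all 2193 events, so these counts do not show that the calls were dimmer than the rest.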

How the data were processed

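The deposited table holds the authors' processed values, treated as a score, for 21882 probes on 10 arrays. Its base and transformation are not stated, and scanner, dyes, background correction and normalization between arrays have no description in the sources used here. The 2 tissues were compared after centring each array on its median. Thresholds were 4 robust SDs (median absolute deviation times 1.4826) of the heart minus muscle difference over all 3126 events. Exon calls needed flanks above the lowest 25% of values in both arrays and a body index of the same sign. Named level events are the 2 highest and 2 lowest among calls in which C1 and C2 each passed. Named exons are the 2 highest and 2 lowest junction index differences among calls whose inclusion mean and C1:C2 each exceeded the 95th percentile of INT in at least one array. The members, lists and thresholds were chosen with earlier results of these data known. The planned marker lists were not applied, since the table pairs no gene names with events. The scripts were first tested on simulated data, in which the seeded changes were known. No p-value was computed, since each tissue has 1 sample, and precision is limited by the number of arrays. Alternatives covered normalization, threshold, filters, single flanks, single junctions and the comparator for sides. The software was pandas 2.3.3 with numpy 2.4.6 under Python 3.11.15, and figures were drawn with matplotlib 3.10.9.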

Additional observations from a re-analysis of the deposited data

How the results depend on the processing

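No paired analysis was possible because heart and muscle have 1 pooled sample each. Of 72 counts recomputed under the alternatives, 43 stayed within 1.5 times of the main count and 29 moved. The 43 include the counts from the columns as deposited, which could hardly move. Centring cancels in both indices and shifts the level difference by -0.00545 only. The same holds for the values of named events from those columns, given below. In the order level higher, level lower, exons more included and exons more skipped in heart, the main counts were 26, 11, 5 and 17. They were 61, 28, 19 and 39 at 3 robust SDs and 4, 2, 1 and 1 at 6. With a threshold pooled over all tissue pairs, level gave 8 higher and 5 lower events, and 11 exons were more skipped. Quantile normalization gave 17 lower level events and 15 level calls assigned to muscle, against 9, and it also called 31 of the 37 level events and 18 of the 22 exons. C1 alone gave 17 higher level events, and both flanks past the threshold gave 16 higher and 5 lower. Level calls assigned to both tissues numbered 2, against 7 with the mean of the other 8 tissues and 5 with spleen left out of the comparator. For exons, flanks above the INT percentile left 1 included and 1 skipped, and junctions above it left 3 and 2. With no filter 10 were more included, and with the body index not used 9 were, against 1 when exons were called on the body index instead. C1:A as the only inclusion junction gave 12 included and 29 skipped, and A:C2 as the only one gave 7 skipped. Leaving out events with a probe shared by muscle and spleen, an alternative chosen after seeing the data along with those on zeros and look-alike profiles, left 3 included. The cause of these moves was not tested beyond what each alternative leaves out. None of the 32 recomputed values of named events changed sign, and 6 moved by over 1 robust SD, all on a single inclusion junction.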

Other observations

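Among the 2193 events with readable flanks, the body index alone passed its threshold in 16, of which 13 were lower in heart and 3 higher. Of the 16, 4 held a probe shared by muscle and spleen, and 12 did not, against 67 of the 2193 that held one. A further 13 events passed whose flanks were too dim to qualify. Only 6 of the 16 were exon calls. The level was higher in heart in 11 of the 13 and lower in heart in all 3 of the others, and the level is subtracted in the body index. The lowest value, -4.78, came from a single A probe that read 2.07 in heart and 7.03 in muscle, with 7.14 in spleen and 2.15 to 4.53 in the other 7 tissues, while its junction index differed by -0.46. A further event had A at 2.02 in heart and 5.16 in muscle, with 5.18 in spleen, and another had A at 1.41 in heart and 3.51 in muscle, with 3.53 in spleen.

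The INT probes entered no index. Of 3126 INT probes, 5 were higher in heart than in muscle by 2 or more units and 43 were lower in heart. Spleen lay within 0.2 units of muscle in 38 of the 43. How many of all 3126 lay that close was not counted, so the 38 are not shown to be particular to these probes. The robust SD of INT differences was 0.582 between heart and muscle and 0.254 between muscle and spleen. None of the 37 level calls held a probe shared by muscle and spleen in this way.

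The 70 events with a look-alike partner included a pair of exon calls whose junction index differed by -2.65 and -2.88. Both were assigned to muscle, and both held a probe shared by muscle and spleen. In events whose flanks were too dim to qualify, 12 more passed the junction threshold.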
